A study of Mus musculus with 32 samples.

Results

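Silencing of Dnmt1 was compared with control silencing in mouse lung endothelial cells (ECs) that had received tumor necrosis factor alpha (TNF) and interferon gamma (IFN) together, across all genes measured. The comparison takes the 4 libraries labelled si-dnmt + TNF + IFN and the 4 labelled si-control + TNF + IFN, chosen by those labels alone, out of 32 bulk RNA-seq libraries. The cells were Veravec, a single EC line, transfected on 2 occasions with BLOCK-iT siRNA against Dnmt1 or with control BLOCK-iT siRNA and then left without cytokine or given TNF, IFN or both, in 4 libraries for each of the 8 groups. TNF was used at 10 ng/mL and IFN at 1000 U/mL for 16 h, so all 8 libraries compared here share the line, the Lipofectamine RNAiMAX transfection, the serum-containing growth medium and both cytokines, and they differ in the siRNA. The replicates are described as biological, and the labels name no batch. The study's methods list 2 siRNAs against Dnmt1 and the labels do not say which of them a library received, so other effects of the oligos cannot be told apart from loss of Dnmt1.

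DNMT1 copies CG methylation onto the new strand when DNA is replicated, and its loss lets methylation fade as cells divide. TNF acts in ECs mainly through NF-kB and induces adhesion molecules and chemokines, while IFN acts through JAK kinases and IRF1 and induces antigen presentation, guanylate-binding proteins and CXCR3 ligands. ECs exposed to both take on features that let them hold and instruct leukocytes. DNA methylation was not measured in these libraries, so every value given here is an RNA level.

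The 8 libraries held between 17362546 and 23657734 counts, and the 4 si-control libraries (17734651 to 23657734) overlapped the 4 si-dnmt libraries (17362546 to 20703292). Levels are CPM, a gene's counts relative to the total of its library scaled by the trimmed mean of M values (TMM), listed for replicates 1 to 4 in that order. Endothelial markers were all tested, 12 of 12, and their summed level was 4414 to 6231 CPM with si-control and 3901 to 5861 CPM with si-dnmt. Of 10 leukocyte markers, summing to 106 to 174 CPM with si-control and 77.7 to 136 CPM with si-dnmt, 6 stayed at or under 3 counts in every library of both groups, Ptprc, Cd3e, Itgam, Adgre1 and Cd52 among them. Of the 3 that were tested, Coro1a rose from 5.55 to 11.7 CPM (1.07, adjusted p = 1.55e-05), while Cd68 had means of 115 and 94 CPM and Lyz2 of 15.2 and 3.90 CPM without a call. The part of these markers in other results was not tested. Also at or under 3 counts were the epithelial markers Epcam, Cdh1, Krt8, Sftpc, Sftpb, Scgb1a1 and Nkx2-1. Counts from mitochondrial genes made up 2.73 to 3.65% of each si-control library and 2.13 to 2.64% of each si-dnmt library, with no overlap, and the part of this in other results was not tested. Replicates 1 and 2 stood apart from replicates 3 and 4 in both groups, and values for these 2 sets of libraries are given for some of the genes and lists in which they differ.

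Dnmt1, the silenced gene, was measured at 143, 150.2, 211 and 203 CPM with si-control and at 17.3, 13.1, 5.84 and 5.78 CPM with si-dnmt. No library of one group came near the other, and the fall was -4.08 ± 0.385 (log2 fold change ± SE, adjusted p = 5.04e-08), with -3.27 in replicates 1 and 2 and -5.16 in replicates 3 and 4. An exact permutation test over the 70 assignments of the 8 libraries gave p = 0.02857, two-sided, the smallest value this design allows. Of 19 tested genes that write, read or remove DNA methylation, 3 rose and 2 fell (4 and 5 with the replicate number as a block), Dnmt1 among the falls. The falls were near the share of all genes (8.65%). The de novo methyltransferase Dnmt3a read 19.8, 20.7, 21.3 and 21.1 CPM with si-control and 32.6, 32, 36.8 and 35.7 CPM with si-dnmt, every silenced library being above every control (0.73 ± 0.0943, adjusted p = 3.18e-06). Its relative Dnmt3b rose by 0.82 from means of 1.62 to 2.87 CPM, and Tdg, the glycosylase that excises oxidised methylcytosine, rose by 0.60. Zbtb4, a reader of methylated DNA, fell by 0.51.

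Of 15254 genes tested, 2678 (17.6%) changed with Dnmt1 silencing under both cytokines, 1359 (8.91%) upward and 1319 (8.65%) downward, at an edgeR adjusted p under 0.05. With the replicate number as a block the same test called 2306 (15.1%) higher and 2349 (15.4%) lower, and 2677 of the 2678 calls were among these with the same direction. The large changes were mostly rises. With a change of at least 1 on the log2 scale as well there were 388 higher genes (2.54%) and 195 lower (1.28%), and past 2 there were 119 higher and 26 lower. The genes that fell were the more abundant ones: together they went from 217008 to 147572 CPM, while those that rose went from 66585 to 97846 CPM. Libraries of the groups did not overlap for 3337 genes (21.9%), and 2307 of these were also called. The median log2 fold change over all tested genes was 0.0015.

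**Figure D1:**
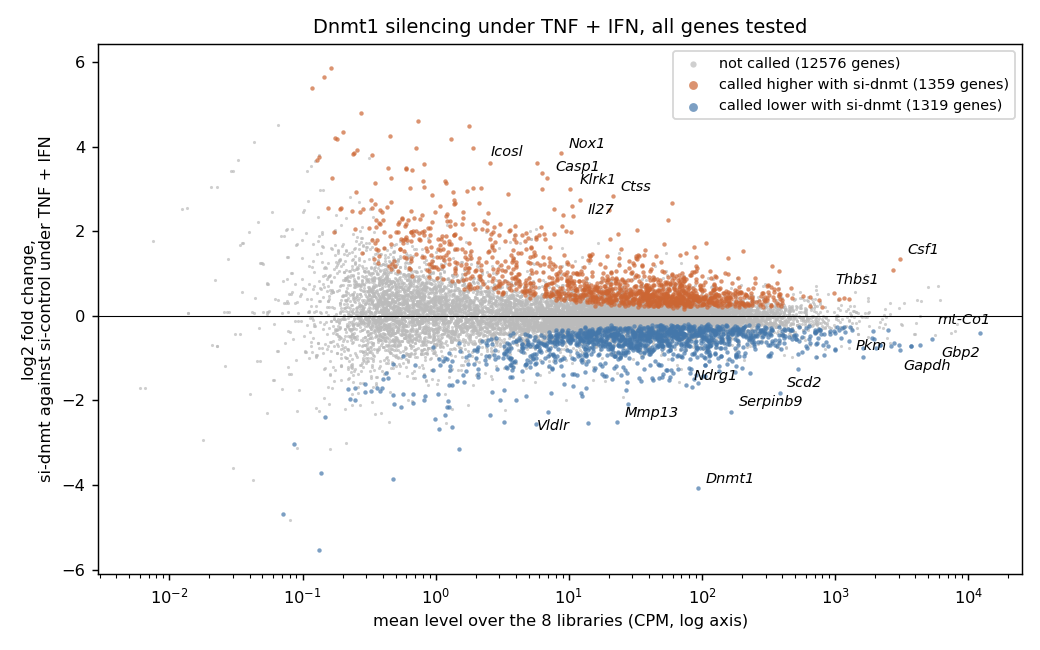
Log2 fold change of si-dnmt over si-control under TNF + IFN (vertical axis) against mean CPM on a log axis (horizontal axis), 1 point for each of the 15254 genes tested. Points are coloured by whether the gene was called higher (1359), lower (1319) or not (12576), and the higher calls reach larger fold changes at low levels than the lower calls do.

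Genes were grouped in 28 lists by function, and 6 further lists (glycolysis, hypoxia-inducible factor targets, ATF4 targets, p53 targets, cytosolic ribosomal proteins and mitochondrially encoded proteins) were added after values had been seen, so their counts are a description. Against a background of 8.91% higher and 8.65% lower, the counts in both directions are plotted for every list. Counts given with the replicate block have a larger background, 15.1% higher and 15.4% lower. Cytokines, co-stimulatory ligands, chemokines and cell death genes stood on the higher side, and glycolysis, hypoxia-inducible factor, ATF4, mitochondrial and sterol genes on the lower side. Interferon-induced antigen presentation showed few calls in either direction. Where no gene of a list was called in a direction, none had an unadjusted p under 0.05 in that direction and DESeq2 called none, except for class II (2 higher unadjusted, 2 by DESeq2), class I (2 higher unadjusted, 1 by DESeq2) and, with 0 by DESeq2, JAK-STAT (3 lower unadjusted), matrix (2 lower) and imprinted genes (1 lower). Counts of 0 to 2 changed by 1 when certain single libraries were left out in the lists of inhibitory ligands, class I and class II, JAK-STAT, cell death (lower), redox (lower), TGF-beta (lower), arterial, venous, identity (higher), cell cycle (higher), imprinted and p53 (lower) genes. The genes described are those that met a rule on size and separation or head a list. For the 15 largest rises and falls, Icosl, Nox1, Casp1 and Selenbp1 among them, that rule required groups without overlap. Where no overlap is given for such a gene it is therefore not a further result. Cxcl1, Cxcl3, Cx3cl1, Lif and the genes of the 6 added lists were named after their values were seen. In bulk RNA, fewer cells of a kind and less RNA per cell cannot be told apart, and this holds for every fall given below.

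Ligands that T cells read on the endothelial surface moved upward. Of 9 tested co-stimulatory genes 4 rose and none fell, and all 9 had a positive log2 fold change, with a median of 1.09 against 0.0015 for all genes. The study selected Icosl, Tnfsf4 and Cd40 from these same libraries, so their part in this count is not independent evidence. The rise was not particular to both cytokines together. The same list had 5 higher genes without cytokine, 5 with TNF and 4 with IFN, with medians of 0.59, 1.32 and 1.66. No gene of the list passed the direct test between states given further below. Icosl, which binds ICOS on T cells, was at 1.06, 0.781, 0.493 and 1.11 CPM with si-control and at 11.6, 11.8, 9.43 and 9.83 CPM with si-dnmt. The groups lie far apart with no overlap (3.61 ± 0.395, adjusted p = 2.97e-07). Tnfsf4, the ligand of OX40, read 3.7, 5.21, 7.83 and 7.41 CPM against 30.9, 29.7, 36.7 and 38 CPM (2.49 ± 0.221). Cd40, the receptor through which helper T cells act back on presenting cells, read 16.3, 16.3, 7.83 and 8.84 CPM against 46.2, 41.3, 29.4 and 31.7 CPM (1.59 ± 0.27). In both the lowest silenced library was above the highest control library. Tnfsf15, the ligand of DR3, was scarce throughout, with means of 0.316 and 0.849 CPM (1.40 ± 0.468, adjusted p = 0.0389).

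Among the genes with the largest rise, the windows around the transcription start of Icosl and of Nox1, a catalytic subunit of NADPH oxidase, are shown. Icosl was set for display by name and Nox1 as the largest rise that met the rule on size and separation, and windows of falling genes are left out. The Icosl and Nox1 windows stand far apart in CG density although both genes rose strongly, and a single pair does not describe rising genes in general. Both are RefSeq sequences on GRCm38.p6, 250 bases before to 50 after the annotated start, written 5′ to 3′ on the strand of the gene with each CG dinucleotide in capitals. The Icosl window lies at chr10:78069118-78069417 on the plus strand, and that of Nox1 at chrX:134111805-134112104 on the minus strand.
Icosl: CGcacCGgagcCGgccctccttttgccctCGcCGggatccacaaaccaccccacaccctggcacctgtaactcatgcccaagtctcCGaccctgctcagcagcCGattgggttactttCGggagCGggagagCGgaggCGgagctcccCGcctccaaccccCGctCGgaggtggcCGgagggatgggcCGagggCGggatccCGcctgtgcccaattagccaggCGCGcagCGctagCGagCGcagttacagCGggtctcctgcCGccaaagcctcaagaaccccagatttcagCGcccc
Nox1: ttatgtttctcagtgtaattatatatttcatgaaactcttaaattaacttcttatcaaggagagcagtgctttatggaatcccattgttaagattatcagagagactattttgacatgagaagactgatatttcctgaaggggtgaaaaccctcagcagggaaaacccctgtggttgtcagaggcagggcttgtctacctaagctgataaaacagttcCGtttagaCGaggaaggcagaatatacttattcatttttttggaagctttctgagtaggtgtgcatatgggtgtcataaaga
The Icosl window held 26 CG dinucleotides at 68% GC and the Nox1 window 2 at 38% GC, beside a median of 7 CG (quartiles 3 and 20) over the 32851 windows of the table. Whether these bases were methylated was not measured. Nox1 was at 1.20, 1.51, 0.678 and 1.11 CPM with si-control and at 24.6, 25.7, 7.11 and 8.45 CPM with si-dnmt, so all silenced libraries were above all controls while replicates 1 and 2 rose further than 3 and 4 (3.85 ± 0.605, adjusted p = 4.77e-05).

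Inhibitory ligands and enzymes were mixed, with 2 of 11 tested genes higher and 1 lower, the fall being near the share of all genes (8.65%). Cd276, also called B7-H3, rose from 35.3, 32.6, 27.3 and 27.9 CPM to 47.9, 50.2, 45.1 and 42.7 CPM with no overlap (0.59 ± 0.0911). Ido1, which degrades tryptophan, rose by 1.18 (adjusted p = 0.0199), from 70.9, 75.2, 34.6 and 39.5 CPM to 184, 172, 68.5 and 75.5 CPM. The groups overlapped, si-dnmt replicates 3 and 4 being about level with si-control replicates 1 and 2, while each silenced library was above the control of its own number. Pvr, the shared ligand of TIGIT and CD226, fell from 211, 215, 139 and 136 CPM to 94.2, 118, 69.5 and 71.3 CPM (-0.99 ± 0.216, adjusted p = 0.00165). For Cd274, which encodes PD-L1, the log2 fold change was 0.32 with an adjusted p of 0.401.

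Chemokines that attract neutrophils rose. Of 20 tested chemokine genes 7 rose and none fell, 17 had a positive value, and the median was 0.58. Their mean summed level went from 12318 to 16048 CPM, but the groups overlapped (10261 to 14541 CPM with si-control, 12587 to 19414 CPM with si-dnmt). Cxcl9, abundant and without a call, is part of that sum. The same list had 10 higher genes without cytokine, 9 with TNF and 8 with IFN. Cxcl5 was at 34.6, 42.3, 55.7 and 65.9 CPM with si-control and at 128, 145, 207 and 179 CPM with si-dnmt, with the lowest silenced library well above the highest control (1.73 ± 0.402, adjusted p = 0.00302). Cxcl1, Cxcl2 and Cxcl3, which act on the same receptor CXCR2, rose by 1.54, 1.56 and 1.496, and in none of them did a silenced library fall within the range of the controls. Ccl20, the ligand of CCR6, rose from 0.529, 0.781, 2.53 and 1.85 CPM to 12.5, 12.5, 10.6 and 8.99 CPM. The silenced libraries were close to each other, and the rise of 2.99 ± 0.437 was larger in replicates 1 and 2, where si-control was lower. Cx3cl1, the membrane-bound chemokine fractalkine, rose by 0.89 ± 0.178, from 139.6 to 196 CPM across control libraries to 287 to 369 CPM. Cxcl9 and Cxcl10, which draw CXCR3-bearing T cells, had log2 fold changes of 0.68 (adjusted p = 0.385) and 0.08 (adjusted p = 0.879). Cxcl9 was at 4546, 4359, 3150 and 3216 CPM with si-control and at 8457, 8131, 4045 and 3888 CPM with si-dnmt, so the groups overlapped although each silenced library was above the control of its own number. Within replicates 1 and 2 its difference was 0.89 (adjusted p = 6.63e-07) and within 3 and 4 it was 0.32 (adjusted p = 0.0093), and with the block over all 4 the adjusted p was 0.0636. The adjusted p within a set measures only the spread inside that set.

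Growth factors and cytokines rose as well. Of 18 tested genes 6 rose and none fell, with a median of 0.87, and their summed level went from between 2026 and 2200 CPM to between 4741 and 5133 CPM. Most of that came from Csf1, the macrophage growth factor, which gained more CPM than any other gene called higher: 1571, 1560, 1962 and 1919 CPM with si-control and 4157, 4163, 4779 and 4605 CPM with si-dnmt. All silenced libraries were far above all controls (1.34 ± 0.135, adjusted p = 7.85e-08). Csf2, which encodes GM-CSF, rose from 0.913, 0.573, 0.185 and 0.212 CPM to 3.82, 5.16, 3.82 and 2.96 CPM (3.02 ± 0.532). Il27 and Ebi3 encode both chains of interleukin 27 and rose together. Il27 went from 4.23, 4.01, 2.22 and 2.06 CPM to 27.8, 25.7, 14.5 and 16.3 CPM (2.74 ± 0.316) and Ebi3 from 0.192, 0.208, 0.555 and 0.318 CPM to 2.40, 3.90, 1.68 and 1.63 CPM (2.92 ± 0.508). Silenced libraries of replicates 1 and 2 were the higher ones for both. Lif rose by 1.02 ± 0.245. Tnf was called higher too, with the largest log2 fold change of the 6, but it was scarce, at no more than 93 counts in any library of the groups compared. The cytokine list had 4 higher genes without cytokine, 7 with TNF and 5 with IFN. Il6 was at 36.2, 35.2, 5.24 and 4.39 CPM with si-control and at 43.1, 33.8, 21.8 and 25.5 CPM with si-dnmt, where the replicate sets differ by more than the siRNAs do (0.61, adjusted p = 0.635).

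**Figure D2:**
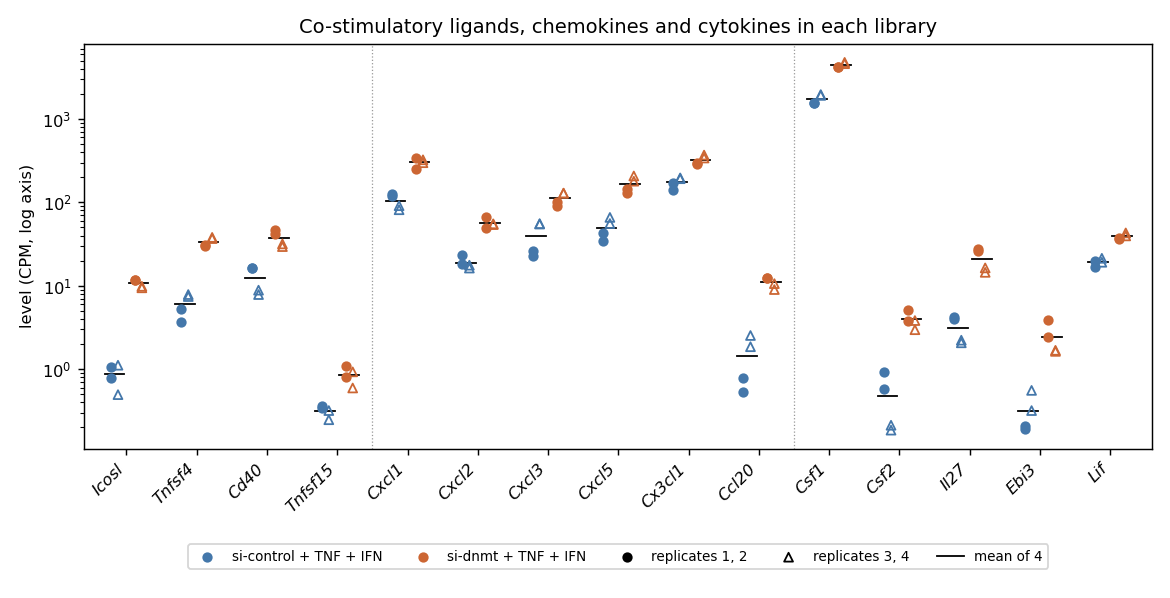
CPM on a log axis of 15 co-stimulatory, chemokine and cytokine genes in each of the 8 TNF + IFN libraries, si-control beside si-dnmt, with filled circles for replicates 1 and 2, open triangles for replicates 3 and 4 and a bar at each group mean. Every gene plotted was called higher, and in Csf1 all si-dnmt libraries (4157 to 4779) lie above all si-control libraries (1560 to 1962).

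P-selectin, E-selectin and 3 other genes of the adhesion and junction list rose, and Emcn and Jam3 fell. Of 24 tested genes 5 rose and 2 fell, the falls being near the share of all genes (8.65%), 7 and 6 with the replicate block, and the 2 falls became 1 without si-dnmt replicate 3 or 4. Selp, P-selectin, was at 233, 212, 270 and 266 CPM with si-control and at 375, 341, 668 and 650 CPM with si-dnmt, separated in every library and more so in replicates 3 and 4 (1.05 ± 0.22). Sele, E-selectin, rose by 0.96 ± 0.246, Vcam1 by 0.43 ± 0.109, Alcam by 0.72 and Itga5 by 0.56. Icam1 had all silenced libraries (1598 to 1774 CPM) above all controls (939 to 1451 CPM), yet its adjusted p was 0.0708, and 0.00138 with the block. Emcn, a mucin that covers resting capillary and venous ECs, fell from 708, 832, 729 and 722 CPM to 515, 578, 366 and 368 CPM (-0.71 ± 0.143), and the junctional Jam3 fell by 1.40. Cdh5 and Pecam1, the general EC junction markers, differed by -0.15 (adjusted p = 0.721) and -0.18 (adjusted p = 0.528).

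Few genes of antigen presentation, which IFN induces strongly, were called. Of 13 class II genes 1 fell, near the share of all genes (8.65%), and none rose (median -0.19). Of 23 class I genes none was called (median -0.07), with 2 rises in each list under the replicate block. The summed class II level was 820 to 2244 CPM with si-control and 776 to 1917 CPM with si-dnmt. With so wide a spread, few calls do not show that class II levels were unchanged. The class II call was Rfxap, a subunit of the RFX complex that binds class II promoters, at 8.50, 7.34, 7.64 and 7.57 CPM with si-control and 4.12, 5.52, 4.80 and 3.31 CPM with si-dnmt (-0.81 ± 0.173). H2-K1 differed by -0.22 (adjusted p = 0.726) and Ciita by -0.0042 at an adjusted p of 0.998. Medians of the class I list in the other states were 0.59 without cytokine, 0.46 with TNF and -0.14 with IFN. Those of the class II list were 0.07, 2.01 and -0.25.

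Of 19 tested IFN-induced GTPases of the guanylate-binding and immunity-related families none rose and 2 fell, near the share of all genes, and 7 fell with the replicate block. The number of falls was 0 when either of si-control replicates 1 and 2 or of si-dnmt replicates 3 and 4 was left out, 1 for si-control replicate 3 or 4, 4 for si-dnmt replicate 1 and 5 for si-dnmt replicate 2. Gbp2, among the most abundant transcripts of these cells, lost CPM from 7062, 6596, 5787 and 5891 to 4733, 5089, 3939 and 3511 (-0.55 ± 0.193, adjusted p = 0.0459), all silenced libraries lying below all controls. Gbp8 fell by 0.62. Of 36 tested antiviral genes 6 rose and none fell, 13 and 1 with the block. Their median was 0.10 in replicates 1 and 2, with 10 genes higher, and 0.46 in replicates 3 and 4, with 26 higher. Among all genes, 1841 were higher in replicates 1 and 2 alone and 2604 in replicates 3 and 4 alone. Oas1g, of the oligoadenylate synthetase family that senses double-stranded RNA, rose from 16.7, 17.5, 10.8 and 9 CPM to 35.3, 29.6, 21.5 and 25.4 CPM (1.04 ± 0.266, adjusted p = 0.00611), with no overlap between the groups, and its relative Oas2 rose by 0.90. The IFIT family member Ifit1bl1 rose by 2.26 ± 0.504 while Ifit1 and Isg15 had adjusted p of 1 and 0.834. Within JAK-STAT signalling, 2 of 25 genes rose, near the share of all genes (8.91%), and none fell, 4 and 4 with the block. The rises were Irf5, from between 22.5 and 30.2 CPM to between 54.4 and 58.6 CPM (1.10 ± 0.227), and the kinase Tyk2 (0.80 ± 0.109, adjusted p = 5.8e-06).

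In NF-kB signalling 5 of 27 tested genes rose and 3 fell, the falls being near the share of all genes (8.65%), 6 and 5 with the block. Tnfaip3, the NF-kB-induced brake A20, was at 218, 214, 262 and 255 CPM with si-control and 367, 345, 425 and 424 CPM with si-dnmt (0.72 ± 0.169, adjusted p = 0.00316). Cyld, another deubiquitinase that restrains the pathway, moved the other way, from 149, 169, 221 and 214 CPM to 128, 119, 100 and 97 CPM (-0.76 ± 0.156), and in both genes the groups did not overlap. Traf6, Nfkbib, Traf3 and Nfkb1 rose by 0.49, 0.42, 0.38 and 0.20, and Traf1 and Tnfrsf1b fell by 0.53 and 0.41. The higher count dropped to 3 without any one of si-control replicates 1, 2 and 4 and si-dnmt replicates 3 and 4, and the lower count to 1 without si-dnmt replicate 1.

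Inflammasome and cell death genes leaned upward, with 10 of 26 tested genes higher and 1 lower, 12 and 3 with the block. Casp1, which cleaves pro-interleukin 1 and gasdermin D, was at 0.817, 0.885, 2.34 and 1.16 CPM with si-control and at 14, 11.9, 11.7 and 11.7 CPM with si-dnmt (3.26 ± 0.323, adjusted p = 5.66e-08). Its silenced libraries were nearly level, and even the highest control was far below them. P2rx7, the ATP-gated channel that sets off NLRP3, rose from 0.336, 0.573, 0.247 and 0.370 CPM to 2.34, 1.98, 6.42 and 8.10 CPM (3.60 ± 0.719), and Nlrp3 itself from 1.87, 1.25, 2.28 and 2.06 CPM to 4.92, 5.76, 8.39 and 8.84 CPM (1.90 ± 0.335). Both ended higher in replicates 3 and 4 than in 1 and 2. Aim2, a sensor of cytosolic DNA, rose by 0.82 ± 0.105 and the apoptosis inhibitory protein family member Naip6 by 2.13. Casp12 fell by 0.60. Serpinb9, an inhibitor of granzyme B, fell from 350.2, 331, 207 and 212 CPM to 70.5, 73.8, 45.8 and 39.2 CPM, so that the highest silenced library was well below the lowest control (-2.26 ± 0.213, adjusted p = 3.45e-08).

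Redox genes gave 3 rises, Nox1 among them, and 2 falls among 22 tested, the falls being near the share of all genes (8.65%). With the replicate block there were 11 and 4. The rises dropped to 1 without any one of 6 of the 8 libraries, the exceptions being si-dnmt replicates 1 and 2. Nos3, the endothelial nitric oxide synthase, fell from 139, 131, 140.3 and 141 CPM to 73.8, 92.8, 78.5 and 80.7 CPM (-0.76 ± 0.124, adjusted p = 7.03e-05), tight within each group. Catalase (Cat) rose by 0.93 with an adjusted p of 0.0492. Of 19 tested cathepsin, serpin and lysosome genes 3 rose and 2 fell, the falls being near the share of all genes (8.65%), 3 and 5 with the block. Ctss, the cathepsin S that trims the invariant chain, went from 6.73, 8.54, 2.96 and 2.96 CPM to 51, 56.3, 19.9 and 23.7 CPM (2.82 ± 0.439), with each set of replicates rising from its own level. Serpinh1, the collagen chaperone HSP47, fell by 0.54 ± 0.106.

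Anticoagulant and vasodilator genes moved individually rather than as lists. Thbd, thrombomodulin, fell from 209, 201, 351 and 319 CPM to 142, 133, 148 and 139.6 CPM (-0.94 ± 0.176, adjusted p = 0.000323), so that libraries that differed with si-control came to nearly one level with si-dnmt. Procr, the endothelial protein C receptor, rose by 0.39 (adjusted p = 0.0408) and Gas6, a ligand of the TAM receptors, by 0.85, in a coagulation list of 17 genes with 3 higher and 1 lower, 3 and 2 with the block. Without si-dnmt replicate 2 there was 1 higher. Adm, adrenomedullin, fell from 187, 187, 108 and 105 CPM to 75.9, 101, 43.5 and 40.8 CPM (-1.16 ± 0.354), and 3 of 18 vasoactive genes fell and 1 rose, 4 and 4 with the block. The number of falls was 1 without si-control replicate 1 or si-dnmt replicate 3 or 4. Ace, angiotensin-converting enzyme and a marker of lung capillary ECs, rose from between 10.9 and 13.3 CPM to between 21.3 and 28.7 CPM. In the complement list C3ar1 and Cd55 rose, 2 of 12 tested, and none fell (3 and 2 with the block), the rises becoming 0 without si-dnmt replicate 1 and 1 without any one of si-control replicates 3 and 4 and si-dnmt replicates 2, 3 and 4.

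In the list of endothelial receptors, identity and lung capillary genes 5 of 28 tested fell and 2 rose, 12 and 3 with the replicate block. The rises were near the share of all genes (8.91%). The falls were Vldlr, Nos3, Cav2, Cav1 and Cavin1. Kdr (0.20), Eng (0.37), Tie1 (-0.08), Tek (-0.17) and Erg (-0.30) were not called. Without si-control replicate 3 or 4 the fallen genes numbered 3. In the venous list, Nr2f2, the transcription factor COUP-TFII, was at 59.7, 66.2, 69.5 and 58.5 CPM with si-control and at 25.5, 29.4, 16.7 and 17.2 CPM with si-dnmt, which leaves a clear gap (-1.52 ± 0.262, adjusted p = 0.000154). The arterial Notch1 fell from 206, 182, 194 and 192 CPM to 119, 139, 119.5 and 113 CPM (-0.66 ± 0.116), while its ligand Dll1 rose from between 7.25 and 14.2 CPM to between 22.7 and 25.5 CPM (1.22 ± 0.218). Cav1 and Cav2, which build caveolae, fell by 0.63 and 0.74. The endothelin B receptor Ednrb rose from 18.5, 23, 64.6 and 64.3 CPM to 67.3, 70.1, 205 and 182 CPM (1.62 ± 0.432), by a similar factor within each set of replicates. Pgf, placental growth factor, of the hypoxia-inducible factor list, fell from 71.8, 66.3, 23 and 18.2 CPM to 11.1, 17, 7.23 and 7.21 CPM (-2.08 ± 0.418). The arterial list gave 2 rises and 2 falls of 21, near the shares of all genes (4 and 5 with the block), and the venous list 2 and 2 of 11.

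Of 31 tested matrix genes 7 rose and none fell, 13 and 5 with the block, while 18 had a positive value and the median was 0.11. Their summed level was 20863 to 26378 CPM with si-control and 20594 to 24861 CPM with si-dnmt, so the groups overlapped. Col6a1, a chain of collagen VI, was at 2.98, 2.34, 2.71 and 2.01 CPM with si-control and at 10.6, 10.7, 7.64 and 8.99 CPM with si-dnmt (1.91 ± 0.322). Fbn1, fibrillin 1, went from between 12.9 and 14 CPM to between 31.3 and 38.8 CPM (1.37 ± 0.326), and the basement membrane laminin chain Lama3 from between 1.80 and 2.71 CPM to between 11.2 and 16.3 CPM (2.53 ± 0.35). For all 3 the silenced libraries stood clear of the controls. Thbs1, the matrix glycoprotein thrombospondin 1, and Lamc1, a laminin chain, were among the 5 genes called higher that gained most CPM, with rises of 1.09 ± 0.195 and 0.53 ± 0.0909 on the log2 scale. The summed level of pericyte and smooth muscle markers was 19.12 to 65.1 CPM with si-control and 59.9 to 134 CPM with si-dnmt, none of the 4 tested markers of 9 was called, and Rgs5, Cspg4, Kcnj8 and Des stayed at or under 3 counts. Fibroblast markers summed to 229 to 410.0 CPM and 133 to 252 CPM, with Col1a2, Lum and Tcf21 at or under 3 counts. The part of either in the matrix result was not tested.

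Matrix proteases were divided, 4 of 24 tested higher and 4 lower. Mmp13, collagenase 3, fell from 64.9, 42.8, 25.6 and 23.8 CPM to 8, 8.28, 5.03 and 6.07 CPM (-2.52 ± 0.285), and the gelatinase Mmp2 from 161, 149, 144 and 140.3 CPM to 55.5, 62.1, 52.7 and 50.2 CPM (-1.43 ± 0.154, adjusted p = 2.39e-07). Both groups were compact for Mmp2. The membrane metalloprotease Adam12 rose by 1.99 ± 0.453 from means of 1.10 to 4.33 CPM. The higher count went to 2 without any one of the 4 controls or si-dnmt replicate 4, and to 1 without si-dnmt replicate 3. Of 38 tested genes of TGF-beta, BMP and Wnt signalling 5 rose and 2 fell, 9 and 7 with the block: Id3, a target of BMP, rose by 0.56 and the ligand Bmp4 fell from between 44.3 and 47.3 CPM to between 24.1 and 37.6 CPM (-0.52 ± 0.137). The 5 rises were 3 when any of the 4 controls or si-dnmt replicate 1 was left out, 2 for si-dnmt replicate 3 and 1 for si-dnmt replicate 4.

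Cell cycle genes gave 1 rise and 3 falls among 38, the falls being near the share of all genes (8.65%). With the replicate block there were 3 and 8, and the median was -0.36. The replicate sets differed here: the median was -0.00064 in replicates 1 and 2, with 6 genes lower, and -0.61 in replicates 3 and 4, with 26 lower, and for 23 of the 38 genes the difference between sets passed its own test. Among all genes, 1804 were lower in replicates 1 and 2 alone and 2894 in replicates 3 and 4 alone, and 9.44% passed the test between sets. Cdkn1b, the inhibitor p27, fell from 127, 133, 131 and 124 CPM to 71, 76.8, 66.1 and 58 CPM (-0.92 ± 0.0855, adjusted p = 3.36e-08), and the G1 kinase Cdk6 and the licensing factor Cdt1 fell by 0.71 and 0.76. Ccne1, cyclin E1, rose by 0.79. Mki67 was at 217, 249, 459 and 377 CPM with si-control and at 266, 229.9, 203 and 168 CPM with si-dnmt, which is a difference of 0.09 in replicates 1 and 2 and of -1.17 in replicates 3 and 4, and -0.59 with an adjusted p of 0.158 over all 4. Leaving out replicate 1 of si-control gave 7 lower genes, and leaving out replicate 1 of si-dnmt gave 6. Germline genes, often held silent by methylation, were mostly under the filter on low counts: 3 of 32 were tested, and the median of those was 0.43 with none called. Of 25 tested imprinted genes 2 rose, near the share of all genes (8.91%), and none fell (5 and 3 with the block). The rises were Igf2r, from between 2.10 and 3.54 CPM to between 6.82 and 9.72 CPM (1.41 ± 0.172, adjusted p = 1.27e-06), and Blcap, by 0.61.

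Transcripts for making sterols and unsaturated fatty acids were lower. Of 24 tested genes of the sterol list 5 fell and none rose, 16 and 0 with the replicate block, 23 of them had a negative value, and the median was -0.56. The count of 5 was 2 when either of si-control replicates 1 and 2 or of si-dnmt replicates 3 and 4 was left out. Hmgcs1, which makes the precursor of mevalonate, fell from 83.1, 97.5, 56 and 56.2 CPM to 32.3, 36.7, 17.9 and 20.1 CPM (-1.45 ± 0.466, adjusted p = 0.03). The stearoyl-CoA desaturases Scd1 and Scd2 fell by 1.46 and 1.82, Scd2 from 792, 826, 380.3 and 399 CPM to 207, 342, 68.5 and 61.4 CPM. No silenced library of these 3 genes reached the lowest control. Vldlr, which takes up lipoproteins, fell from 18, 17.8, 30.7 and 28.2 CPM to 2.77, 4.32, 4.51 and 4.69 CPM (-2.53 ± 0.572).

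The glycolytic pathway was lower nearly throughout. Of 18 tested genes of glucose uptake and glycolysis 15 fell and none rose, 17 had a negative value, and the median was -0.76. Their summed level was 16313 to 22692 CPM with si-control and 10534 to 13108 CPM with si-dnmt. At the entry, the glucose transporter Slc2a1 read 628, 571, 394 and 399 CPM against 301, 365, 258 and 237 CPM (-0.78 ± 0.196) and hexokinase Hk2 read 129, 140.4, 136 and 137 CPM against 72.7, 80.6, 89.7 and 79.6 CPM (-0.75 ± 0.167). Both were below the controls in every library. In the middle steps Pfkl fell by 0.88, Aldoa by 0.59 and Tpi1 by 0.93. Gapdh, a common reference gene, read 4209, 4135, 3652 and 3643 CPM against 1943, 2442, 2306 and 2174 CPM (-0.82 ± 0.0909, adjusted p = 3.52e-07). Its groups were wide apart. Below it Pgk1, Eno1 and Pkm fell by 0.76, 0.76 and 0.69, and Ldha, which makes lactate, fell by 0.78 (adjusted p = 0.0179) with si-dnmt replicate 2 (918 CPM) just above si-control replicate 3 (915 CPM). The count of 15 moved by less than 1.5 times when any single library was left out. The same list had 4 lower genes without cytokine, 9 with TNF and 7 with IFN, with medians of -0.28, -0.44 and -0.33.

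Targets of hypoxia-inducible factors overlap with glycolysis in biology, and those outside it moved the same way: 20 of 30 tested fell and none rose, with a median of -1.004. Without single libraries the 20 became 13 (si-control replicate 1, si-dnmt replicate 3 or si-dnmt replicate 4) or 12 (si-control replicate 2). Vegfa, the main endothelial growth factor, was at 55, 49.1, 53.2 and 49.3 CPM with si-control and at 14.7, 21, 20.1 and 15.1 CPM with si-dnmt (-1.54 ± 0.368, adjusted p = 0.00365). Ndrg1 read 136, 125, 95.5 and 101 CPM against 32.8, 45.5, 36.1 and 33.1 CPM (-1.64 ± 0.282), and Ddit4, a brake on mTORC1, 157, 153, 103 and 107 CPM against 48.9, 67.4, 35.9 and 44.4 CPM (-1.41 ± 0.251). In these genes the silenced libraries never overlapped the controls. Mxi1, a MAX-binding antagonist of MYC, fell by 1.83 ± 0.18 and Hilpda, a lipid droplet protein, by 1.71. Members without a call included Pfkfb3 (-0.16, adjusted p = 0.752) and P4ha1 (0.10). Medians of the list in the other states were -0.11 without cytokine, -0.38 with TNF and -0.33 with IFN, with 2, 6 and 3 genes lower.

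**Figure D3:**
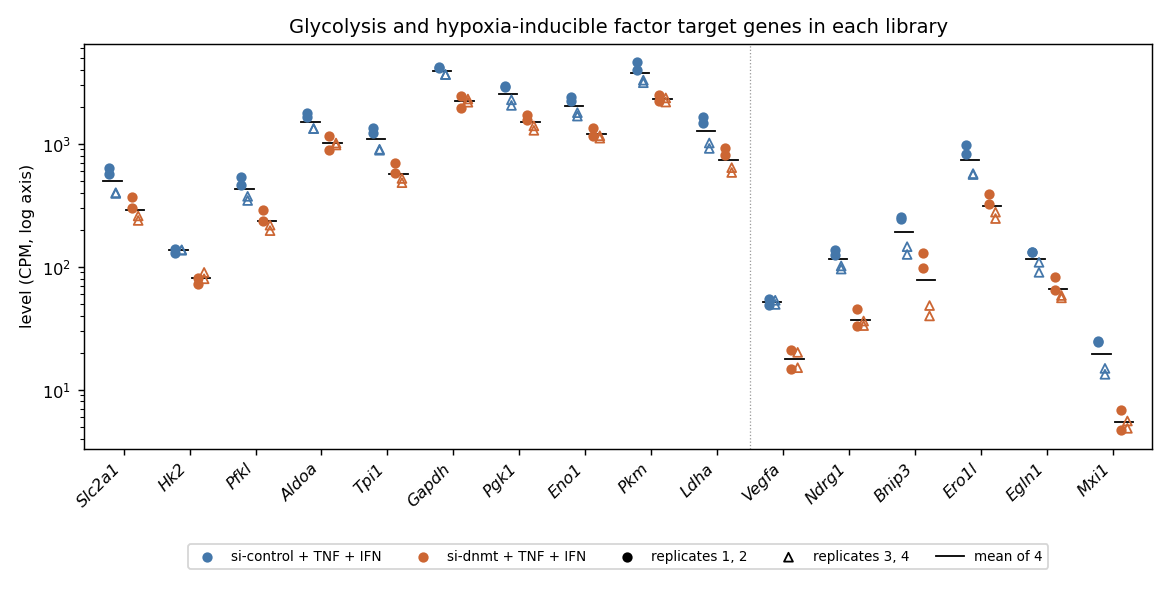
CPM on a log axis of 10 genes of glucose uptake and glycolysis and 6 hypoxia-inducible factor targets in each of the 8 TNF + IFN libraries, si-control beside si-dnmt, with filled circles for replicates 1 and 2, open triangles for replicates 3 and 4 and a bar at each group mean. Each group mean is lower with si-dnmt, and Gapdh goes from 3643 to 4209 CPM in the controls down to 1943 to 2442 CPM.

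Genes driven by ATF4, the factor of the amino acid and stress response, fell as well, 20 of 33 with none higher and none of positive sign (median -0.61). Atf4 itself read 759, 706, 739.7 and 684 CPM against 451, 536, 309.6 and 297 CPM (-0.86 ± 0.199). Asns, asparagine synthetase, read 234, 244, 222 and 216 CPM against 127, 142, 88.3 and 79 CPM (-1.07 ± 0.236), and Pck2 143, 123, 151 and 143 CPM against 46.3, 54.8, 45.6 and 40.7 CPM (-1.58 ± 0.233, adjusted p = 2.02e-05). All 3 were clear of overlap. Trib3 and the folate enzyme Mthfd1l fell by 1.32 and 1.23. Without si-dnmt replicate 3 the count was 13 and without si-dnmt replicate 4 it was 12. With TNF alone 20 of these genes were also lower, with IFN 8 were lower and 1 higher, and without cytokine 1 was lower and 5 higher.

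Targets of p53 rose more often than they fell, 12 against 2 of 33, with a median of 0.42 and a summed level of 2648 to 2834 CPM with si-control and 3603 to 4074 CPM with si-dnmt. Ccng1, cyclin G1, was at 177, 210.2, 209.6 and 216 CPM with si-control and at 484, 396, 487 and 478 CPM with si-dnmt (1.18 ± 0.136, adjusted p = 5.91e-07), a clean separation. Ei24, Aen and Zmat3 rose by 0.78, 0.65 and 0.60. Gadd45a went the other way, from 31, 32.9, 79.3 and 54 CPM to 14.7, 17.2, 20.5 and 18.5 CPM (-1.48 ± 0.269). Cdkn1a, the inhibitor p21, differed by 0.26 (adjusted p = 0.252) and Trp53 by -0.04 (adjusted p = 0.805).

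Of 13 mitochondrially encoded protein genes 7 fell, 11 with the replicate block, none rose, and the summed level of the list was 30079 to 38917 CPM with si-control and 22086 to 26650 CPM with si-dnmt. Of all genes called lower, mt-Co1 lost the most CPM. mt-Co1, a subunit of cytochrome c oxidase, was at 13135, 13624, 15302 and 14126 CPM and then at 10296, 10430, 10817 and 10752 CPM (-0.41 ± 0.112, adjusted p = 0.0101), and mt-Co2 fell by 0.71 (adjusted p = 0.0226). Near-identical nuclear copies were counted beside them, so how reads were divided between copies is uncertain. Of 83 cytosolic ribosomal protein genes 22 fell and none rose, with a median of -0.23 that was -0.48 in replicates 1 and 2 and -0.07 in replicates 3 and 4. Leaving out si-dnmt replicate 1 or 2 brought the 22 to 10.

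The response to Dnmt1 silencing was also set against that in the other cytokine states. With si-dnmt, 2800 genes (18.4%) were called without cytokine, 3032 (19.9%) with TNF and 3107 (20.4%) with IFN. Of the genes called under both cytokines, 595 were higher and 545 lower in all 4 states, and 464 were called in no other state, which does not show that their effects differed. In a direct test of the effect under TNF + IFN against the mean of the other 3 effects, 23 genes passed (0.151% of those tested), 7 with a difference above 0 (0.0459%), meaning a more positive or less negative effect under both cytokines, and 16 with one below 0 (0.105%), and 995 had an unadjusted p under 0.05. With the replicate block 251 genes passed. Between 9 and 23 did when single libraries were left out, the number being 9 for si-dnmt replicate 1, 10 for si-dnmt replicate 3 or 4, 14 for si-control replicate 1 and 15 for si-control replicate 2. Against single states the numbers were 78 (0.511%) for no cytokine, 5 (0.0328%) for TNF and 6 (0.0393%) for IFN.

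Tma16, a factor of ribosome assembly, had the clearest of the differences above 0. It was at 33.4, 33.9, 42 and 38.1 CPM with si-control and at 81, 81.9, 122 and 118 CPM with si-dnmt, the silenced libraries being far above the controls (1.45 ± 0.151), while its log2 fold changes were -0.27 without cytokine, -0.12 with TNF and -0.31 with IFN. The difference from their mean was 1.68 (adjusted p = 3.6e-06). Cptp, which carries ceramide 1-phosphate, rose by 1.40 against 0.10, 0.93 and 0.48 (difference 0.89, adjusted p = 0.049), and Ace by 1.02 against -0.80, -0.18 and 0.03 (difference 1.34, adjusted p = 0.046). Col3a1, at under 2 CPM in every library, had a difference of 2.58 (adjusted p = 0.027). Nmnat2, which makes NAD, was at -0.25 here and at -1.20, -1.04 and -1.62 in the other states (difference 1.03, adjusted p = 0.018).

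Among the differences below 0, Mmp13 had a log2 fold change of -2.52 under both cytokines and of 1.18, -1.86 and -0.21 in the other states (difference -2.23, adjusted p = 0.0048). Selenbp1, which encodes a methanethiol oxidase, had the largest fall after Dnmt1 itself of the genes that met the rule on size and separation. It was at 16.9, 13.3, 4.56 and 4.18 CPM with si-control and at 1.72, 2.46, 1.45 and 0.988 CPM with si-dnmt, with no overlap (-2.57 ± 0.381). Its effects elsewhere were -0.12, -0.26 and -1.04 (difference -2.09, adjusted p = 0.038). Ackr3, a scavenging receptor for CXCL12, fell by 2.50 (difference -2.08, adjusted p = 0.047). Mxi1, Ero1l, Egln1 and Gpi1 of the glycolysis and hypoxia-inducible factor lists were in this group too, and with Ackr3 made 5 of 48 genes of those lists. Ero1l, an oxidase of the endoplasmic reticulum, read 827, 976, 571 and 561 CPM against 322, 388, 277 and 246 CPM (-1.25 ± 0.149), all silenced libraries lying below all controls. Its effects in the other states were 0.43, -0.25 and 0.09 (difference -1.34, adjusted p = 1e-04). Slamf8 showed no call under both cytokines (-0.14, adjusted p = 0.728) but 4.87 without cytokine and 1.10 with TNF (difference -2.24, adjusted p = 0.027).

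**Figure D4:**
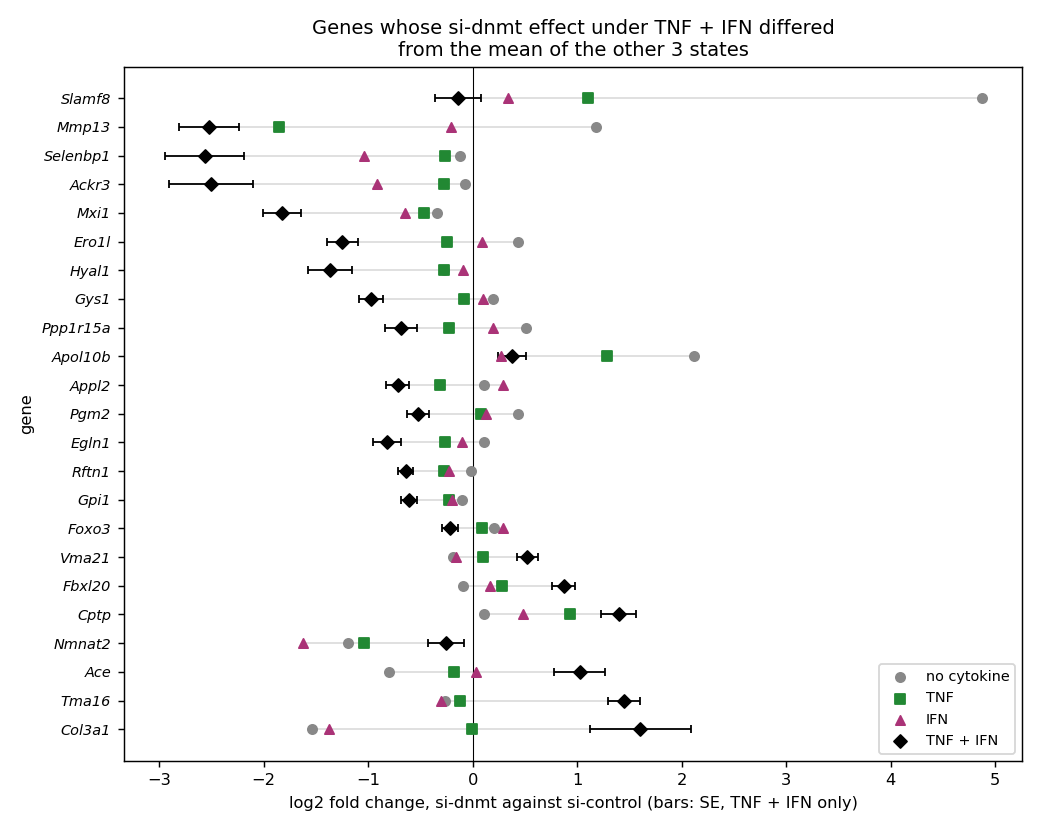
Effect of si-dnmt (log2 fold change over si-control) in the 4 cytokine states, for the 23 genes whose effect under TNF + IFN differed from the mean of the other 3 effects, 1 row per gene, with bars of 1 SE on the TNF + IFN value. Tma16 lies at 1.45 under TNF + IFN and below 0 in the other states, and Mxi1 lies at -1.83 with its other values between -0.34 and -0.65.

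Replicates 1 and 2 and replicates 3 and 4 did not give the same effect for 1440 genes (9.44%), of which 466 (3.05%) had a more positive or less negative value in 3 and 4 and 974 (6.39%) a more negative or less positive one. Of the 2678 called genes, 321 were among them, 2658 had the same sign in both sets and 1686 were called alike in both. The number of 1440 rests on single libraries as well, falling to 635 when si-dnmt replicate 4 was left out, 743 for si-control replicate 1, 747 for si-dnmt replicate 1, 759 for si-control replicate 3 and 953 for si-control replicate 4. The stress chaperone Hspa1a was at 38.4, 31, 19.8 and 18.7 CPM with si-control and at 18.8, 22.4, 70 and 83.7 CPM with si-dnmt, lower in the first set and higher in the second (difference 2.75). Ptx3, a pentraxin induced by TNF, was at 3.46, 3.44, 20.8 and 25.4 CPM and at 14.9, 10.7, 14.7 and 14 CPM, so its groups overlapped and the order turned between sets (difference -2.57). Bmp2 was level in replicates 1 and 2, near 14 CPM in both groups, and in replicates 3 and 4 the controls were at no more than 1.48 CPM against 7.69 and 7.80 CPM with si-dnmt (difference 2.46).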

How the data were processed

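RNA was sequenced from 32 libraries of Veravec mouse lung ECs, 4 for each of 8 groups. The authors deposited whole-number read counts per gene for every library, made with featureCounts from trimmed reads. The submitters' processing notes also name cutadapt 4.9, FastQC 0.12.1, MultiQC 1.27.1 and DESeq2, and an aligner, genome build, annotation and strand setting were not given in the sources used here. Each library table held 54532 identifiers, and the deposited merged table equalled the sums of these by symbol in every cell. Of the identifiers, 54409 are in GENCODE M21, 53842 under the same symbol. A symbol with several identifiers was represented by the one with the highest total count. Near-identical and overlapping genes are uncertain, since reads from one can be counted to another.

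Genes with low counts were removed with filterByExpr of edgeR (8 groups, minimum count 10), and the rest were scaled by TMM and fitted with edgeR 4.0.16 (R 4.3.3) as 8 group means over all 32 libraries, which share 1 estimate of spread. The quasi-likelihood F test was two-sided with robust dispersion, Benjamini-Hochberg adjustment covered all 15254 genes that passed, and calls were made at adjusted p under 0.05. The SE was the absolute log2 fold change divided by the square root of F. The same fit gave the effect under both cytokines minus the mean of the other 3 effects, and a fit of 16 means gave the difference between replicates 3 and 4 and replicates 1 and 2. In simulated counts for 14923 genes the first comparison recovered 85% of 2-fold and 97% of 3-fold changes with 14 false calls among 14723 unchanged genes, and the state difference 82% and 93% with 9. The changed genes were drawn among those with a mean of at least 50 counts, and the simulated libraries had no replicate sets. These figures therefore do not cover scarcer genes or libraries that split into sets as the real ones do.

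Same-numbered si-control and si-dnmt libraries deviated together from their group means (correlations across genes of 0.319, 0.408, 0.396 and 0.353). Libraries 1 and 2 paired as well with each other (0.340 and 0.402), as did 3 and 4 (0.400 and 0.341), while pairs across these sets gave -0.326 to -0.412. The correlations thus mark the sets and do not single out same-numbered libraries. This grouping comes from the data and not from a stated batch. The main fit, with its calls, SE and adjusted p, has no term for it. Replicate number entered as a block only in alternative fits. No pair of libraries was a duplicate. The p-values measure the spread between these libraries, and those from a replicate set alone measure only the spread inside that set. Intervals of counting error were not needed, as each value stands beside its replicates.

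Genes were named if they were among the 15 largest rises or falls with at least 5 CPM, no overlap and 1 sign in both replicate sets, among the 5 that gained or lost most CPM, among the 4 largest calls in each direction or the first 2 genes of a list, or among the largest state or set differences. Members and lists were chosen with earlier results of these data known. Alternatives were other scalings, filters at no minimum and at a count of 50, DESeq2 1.42.0, replicate number or set as a term, the 8 libraries alone, each replicate set alone, a minimum change of 1 on the log2 scale, and each library left out in turn. Promoter windows were read from a RefSeq table that held 10531 of the 15254 tested genes (69.0%), under the 80% needed, so a comparison of CG content between called and other genes is void and was not made.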

Additional observations from a re-analysis of the deposited data

Results flagged for a closer look

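In 12 of the 344 groups of 4 libraries examined for the 172 named genes, 1 library stood apart from the other 3 beyond the critical value of Dixon's test at 95%. Chance alone flags about 1 group in 20. With si-dnmt, replicate 1 was the highest for Casp1 (14 CPM, the next being 11.9) and Sgpp1 (7.38 CPM, next 4.92) and the lowest for Ctsz (300 CPM, next 339), replicate 2 the lowest for Gja5 (1.14 CPM, next 2.08), replicate 3 the lowest for Aim2 (10.9 CPM, next 12.6) and replicate 4 the lowest for Nfkb1 (285 CPM, next 313). With si-control, replicate 2 was the highest for Emcn (832 CPM, next 729) and the lowest for Nfkb1 (243 CPM, next 274), Nfkb2 (152 CPM, next 182) and Nos3 (131 CPM, next 139), and replicate 1 was the highest for Ctso (29.8 CPM, next 24.3) and Tal1 (64 CPM, next 58.1).

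The effect of si-dnmt under both cytokines differed from the mean of the other 3 states, by the edgeR test of that difference, for 10 of the 172 genes named by rule. Ero1l, Egln1 and Gpi1, named from the added lists, passed as well and are not counted here. The difference was above 0 for Col3a1 (2.58), Tma16 (1.68), Ace (1.34), Nmnat2 (1.03, a less negative effect) and Cptp (0.89), and below 0 for Slamf8 (-2.24) and for Mmp13 (-2.23), Selenbp1 (-2.09), Ackr3 (-2.08) and Mxi1 (-1.34), whose falls were the greater ones under both cytokines, all on the log2 scale. Of the named genes, 32 also had an effect that differed between replicates 3 and 4 and replicates 1 and 2. The most different were Hspa1a (2.75), Fam84a (2.61) and Bmp2 (2.46) upward and Ptx3 (-2.57), Ccl20 (-2.09) and Depdc1b (-2.08) downward. The labels name no batch for these sets, and what separates them was not tested.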

How the results depend on the processing

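Dnmt1 was lower in every setting, by 3.27 to 5.16 on the log2 scale. The 1359 higher and 1319 lower calls became 2306 and 2349 with the replicate block, 2355 and 2389 with replicate set as a factor, 2604 and 2894 in replicates 3 and 4 alone, and 388 and 195 at a minimum change of 1 on the log2 scale, and ranged over 1083 to 1194 and 981 to 1245 when 1 library was left out. The 23 genes whose effect differed from the other states became 14 with no low-count filter, 251 with the block, 323 with the set factor, 66 with DESeq2, 556 and 800 in replicates 1 and 2 and 3 and 4 alone, 12 at the fold threshold, and 9 to 23 without 1 library. The 1440 genes that differed between replicate sets became 261 at the fold threshold and 635 to 1290 without 1 library. Beside the counts, 166 of 171 results of the named genes stayed on their side of the threshold with the block, 3 were gained and 2 changed sign. Many named genes were picked because the main fit called them, so their staying called was largely fixed by that choice. The cause of the moves between settings was not tested. None of the genes that changed sign was called over all 8 libraries. In replicates 1 and 2 alone the values were -0.0355 for Cxcl10, 0.00071 for Ciita, -0.19 for Isg15, 0.12 for Ifngr1, 0.15 for Ifngr2, -0.0259 for Casp4, 0.61 for F5, 0.0857 for Mki67, 0.22 for Top2a, 0.23 for Slamf8 and -0.76 for Hspa1a, and in replicates 3 and 4 alone 0.43 for Ifit1, -0.26 for C4b, 0.0272 for Ephb4, -0.20 for Tgfb2, 0.68 for Fam84a and -0.69 for Ptx3. Near 0, Ciita moved to 0.0118 with RLE size factors, 0.0113 at a minimum count of 50 and 0.0126 with DESeq2, to 0.0023 in the 8 libraries alone and to 0.0041 with the block in those, and Ifit1 to 0.0150 with RLE factors, 0.0015 with upper quartile factors, 0.0152 at a minimum count of 50, 0.0150 with DESeq2, 0.0069 in the 8 libraries alone, 0.0594 with the block or the set factor and 0.0962 with the block in the 8 libraries. C4b moved to -0.0642 with the block, -0.0660 with the set factor and -0.0534 with the block in the 8 libraries. Leaving out 1 library gave -0.29 to 0.36 for C4b, -0.0910 to 0.11 for Casp4, -0.24 to 0.31 for Ciita, -0.47 to 0.0930 for F5, -0.27 to 0.20 for Flt1, -0.60 to 0.14 for H2-Aa, -0.17 to 0.22 for Ifit1, -0.11 to 0.0367 for Ifngr2, -0.0222 to 0.31 for Isg15 and -0.29 to 0.57 for Ptx3. Depth limits what can be said of genes under about 1 CPM, such as most germline genes, which the filter removed.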

Other observations

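Several of the largest changes belonged to no list. Nefm, a neurofilament chain, was at 0.480, 0.625, 1.66 and 1.64 CPM with si-control and at 6.71, 8.28, 16.2 and 14.3 CPM with si-dnmt, with no overlap (3.38 ± 0.452, adjusted p = 5.22e-06). Klrk1, which encodes NKG2D and is known from natural killer and T cells, read 2.98, 3.54, 0.924 and 1.59 CPM against 28.2, 24.6, 10.4 and 9.63 CPM (3.00 ± 0.48) with no overlap. Il5ra, the interleukin 5 receptor, rose by 2.37 and ended highest in si-dnmt replicate 1 (30.4 CPM) and lowest in replicate 4 (10.6 CPM). Bdkrb2, the bradykinin B2 receptor, rose from between 0.729 and 1.06 CPM to between 4.44 and 7.46 CPM (2.89 ± 0.358), and Nbl1, a secreted BMP antagonist, by 2.11.

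Among the falls, Taf5l, a subunit of PCAF and SAGA-type acetyltransferase complexes, went from 39, 32.9, 47.6 and 47 CPM to 13.2, 13.1, 12.6 and 10.8 CPM, nearly level across the silenced libraries (-1.75 ± 0.17, adjusted p = 5.04e-08). Sgpp1, a sphingosine-1-phosphate phosphatase, fell from between 14.3 and 25.9 CPM to between 4.51 and 7.38 CPM (-1.89 ± 0.221). Lhfpl2 fell by 2.28, Rgma, a BMP co-receptor, by 1.90 and the sulfotransferase Chst1 by 1.82. In all of these the groups did not overlap, which holds by the rule that named them.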
